A study of Mus musculus with 9 samples.

Results

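Of 10 genes of the p53 and BCL2 pathways looked up by symbol, 8 were in the deposited sample table of 2889 genes: Cdkn1a, Phlda3, Ccng1, Bax, Bcl2, Bbc3, Pmaip1 and Bcl2l11. Mdm2 and Mcl1 are not in that table and were not analysed here. The samples were CD3+ T cells taken by negative selection from spleens of wild-type C57BL/6 mice, kept for 4 h in unconditioned medium, in adipocyte conditioned medium or in stromal cell conditioned medium. There were 3 mice, and each gave 1 sample per medium, 9 in all, so the same animals stand in every group. The cells were bulk populations, in which fewer cells of a type and less RNA per cell cannot be told apart.

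The transcription factor p53 responds to DNA damage and other stress by switching on genes that stop the cell cycle, repair DNA or start apoptosis. Cdkn1a, Phlda3, Ccng1, Bax, Bbc3 and Pmaip1 are textbook p53 targets, although Cdkn1a, Bbc3 and Pmaip1 also respond to other inputs. Proteins of the BCL2 family set the mitochondrial threshold for cell death: BCL2 holds BAX in check, BAX permeabilizes the outer membrane, and the BH3-only proteins PUMA (Bbc3), NOXA (Pmaip1) and BIM (Bcl2l11) neutralize the guardians. In T cells BIM and BCL2 oppose each other in the survival of resting cells and in the removal of cells after activation.

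The 8 genes fell into 3 patterns. Phlda3, Ccng1, Bax and Bcl2 were highest in stromal medium. Bbc3, Pmaip1 and Bcl2l11 were highest in adipocyte medium, and in stromal medium their values overlapped those in unconditioned medium. Cdkn1a was high in both conditioned media, at 3.18 times its unconditioned level in stromal and 4.08 times in adipocyte medium. The classical p53 targets were thus split between the media. Only Cdkn1a and Phlda3 are in both of the authors' 2 tables, and of these Phlda3 alone has opposite directions there.

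Each gene of the sample table had been called changed by the authors in at least 1 of their 2 comparisons with unconditioned medium, in a test against a 1.5-fold change on these same samples. The authors' adipocyte table lists 5 of the 8 genes, where 91.4% of the 2889 genes are listed, and their stromal table lists 5 of the 8, where 17.1% are listed. Both tables list 2 of the 8, Cdkn1a and Phlda3, as they do 8.48% of all genes. A difference from unconditioned medium in a comparison that listed the gene is therefore given as a description, with no test of its own, and so are counts of genes past the limma threshold. The same holds for adipocyte against stromal medium in the 7 genes other than Cdkn1a, since a gene listed for 1 of the media, or for both in opposite directions, was selected on samples of that comparison. The 8 genes were thus chosen by symbol among genes selected on the authors' fold changes and adjusted p-values, with earlier results of these data known. Just inside the authors' threshold was Ccng1, with an adjusted p of 0.0376 and a log2 fold change of 0.91 in the authors' deposited table for stromal medium, and the largest differences outside it were Pmaip1 in stromal medium and Bcl2 in adipocyte medium, at -0.26 and 0.22 in the limma fit. For the comparisons that did not list a gene, and for Cdkn1a between the conditioned media, adjusted p-values come from limma over 2868 genes. Those comparisons share samples with the ones that listed the gene, and the 2868 genes were all selected by the authors' tests. These adjusted p-values are therefore not free of that selection. The values below are normalized counts, the authors' read counts divided by 1 size factor per sample, and log2 fold changes are on the log2(value + 1) scale. All of them rest on the authors' scaling except where a ratio of 2 genes in 1 sample is given.

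In adipocyte against unconditioned medium 5 of the 8 genes passed the limma threshold, 4 higher and 1 lower, where 97.2% of all 2868 genes did, 33.8% higher and 63.4% lower. The ranges of the 3 samples did not overlap for 4 higher and 2 lower genes, where 97.0% of all genes did not overlap, 33.6% higher and 63.4% lower. In stromal against unconditioned medium 5 passed, all higher, where 57.7% of all genes did, 21.1% higher and 36.6% lower. The same 5 genes had ranges that did not overlap, where 69.4% of all genes did not overlap, 25.1% higher and 44.2% lower. Because these comparisons chose the genes of the table, nothing is read from the counts.

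Cdkn1a (ENSMUSG00000023067) encodes p21, the inhibitor of cyclin-dependent kinases through which p53 arrests cells in G1. It stood at 723, 688 and 778 normalized counts in the unconditioned samples of mice 1, 2 and 3, at 2676, 2028 and 2307 in stromal medium and at 3347, 2615 and 3005 in adipocyte medium. All conditioned samples were above all unconditioned ones, and the ranges of the conditioned media overlapped each other. The means were 729.5 ± 45.8, 2337 ± 325 and 2989 ± 366 (SD, n = 3 each). Against unconditioned medium the log2 fold change was 1.67 (SE 0.12) in stromal and 2.03 (SE 0.12) in adipocyte medium. On the authors' scaling the difference between the conditioned media was small, at 0.36 higher in adipocyte medium (SE 0.12, limma adjusted p = 0.0124). It had the same sign in all 3 mice. This call ended without stromal replicate 2 (0.26, adjusted p = 0.0596) or without adipocyte replicate 1 (0.27, adjusted p = 0.0616). Rescaling by the median of ratios, described below, put the difference at 0.93 (limma adjusted p = 2.27e-05). In the GENCODE M21 annotation an exon of AC167363.2 on the opposite strand overlaps Cdkn1a, and libraries of this kind do not keep strand.

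Promoter windows of Cdkn1a, Ccng1 and Bax are shown because they hold matches to the p53 response letters. The windows are the 250 bases before an annotated start in RefSeq (GRCm38.p6), and 7 of the 8 genes matched, all but Pmaip1, with 11 windows. They were searched for the p53 half-site by its consensus, which reads the same on both strands, and for a tandem of 2 half-sites over 20 bases with at most 2 mismatches. Capitals mark exact half-sites and such tandems, which can overlap each other.
Cdkn1a, upstream start, chr17:29090729-29090978, plus strand: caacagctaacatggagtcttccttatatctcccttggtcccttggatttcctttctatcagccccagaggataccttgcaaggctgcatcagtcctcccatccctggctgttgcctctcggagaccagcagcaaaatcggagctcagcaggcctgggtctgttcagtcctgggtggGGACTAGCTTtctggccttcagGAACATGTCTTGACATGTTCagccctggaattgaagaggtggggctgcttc
Ccng1, chr11:40755287-40755536, minus strand: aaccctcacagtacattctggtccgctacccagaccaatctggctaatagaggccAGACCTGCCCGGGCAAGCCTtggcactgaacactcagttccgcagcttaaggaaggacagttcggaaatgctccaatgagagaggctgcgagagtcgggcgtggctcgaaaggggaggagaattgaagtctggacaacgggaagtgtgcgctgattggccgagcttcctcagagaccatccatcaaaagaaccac
Bax, chr7:45466899-45467148, minus strand: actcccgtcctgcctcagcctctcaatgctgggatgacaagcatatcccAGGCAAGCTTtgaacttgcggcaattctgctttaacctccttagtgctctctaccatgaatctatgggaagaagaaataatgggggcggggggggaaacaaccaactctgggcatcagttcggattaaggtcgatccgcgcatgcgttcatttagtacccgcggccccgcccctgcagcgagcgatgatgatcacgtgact

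The tandem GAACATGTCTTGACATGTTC of Cdkn1a and the tandem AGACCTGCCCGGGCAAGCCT of Ccng1 each had 1 mismatch to the consensus. Of the 11 windows, 2 held a tandem, while 0.661% of all 32851 RefSeq windows of the same length did. Bax held 1 exact half-site, and 3 of the 11 windows held at least 1, against 7.13% of all windows. Most of the genes searched were picked as known p53 targets, and 2 windows of Bbc3 overlap, so nothing is read from these shares. The second annotated start of Cdkn1a and the windows of Phlda3, Bcl2, Bbc3 and Bcl2l11 had no match, which says only that these letters are not in those 250 bases. Binding of p53 was not measured.

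**Figure D1:**
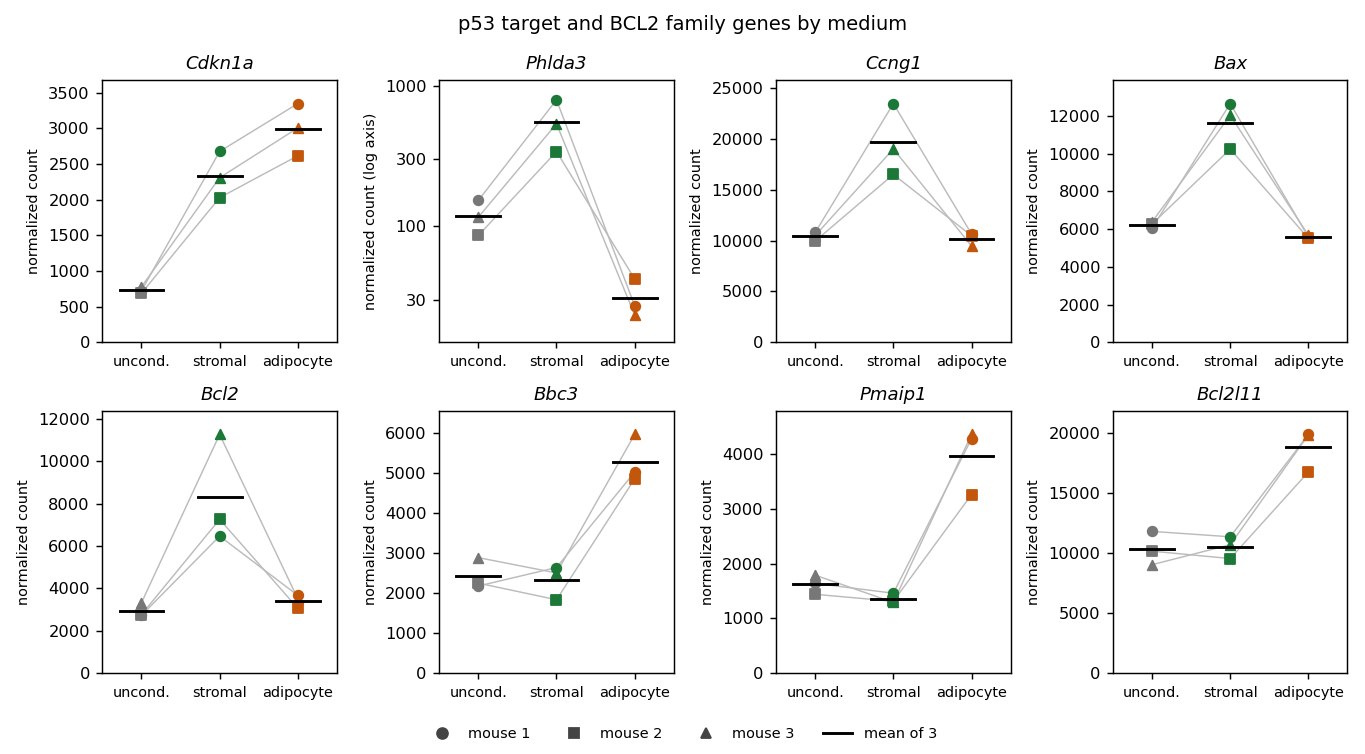
Normalized counts (y axis, log axis for Phlda3 alone) of the 8 genes in unconditioned, stromal and adipocyte medium (x axis), with 1 symbol per mouse, grey lines joining the samples of a mouse and black bars for the mean of 3. Phlda3, Ccng1, Bax and Bcl2 peak in stromal medium, Bbc3, Pmaip1 and Bcl2l11 in adipocyte medium, and Cdkn1a is high in both.

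Phlda3 (ENSMUSG00000041801) encodes a small pleckstrin homology protein that p53 induces and that competes with AKT for membrane lipids. It was at 153, 86.1 and 116 normalized counts in unconditioned medium, at 791, 340 and 535 in stromal medium and at 27.3, 42.3 and 23.4 in adipocyte medium, in mice 1, 2 and 3. None of the 3 ranges overlapped another, so the order adipocyte, unconditioned, stromal held in each mouse. The log2 fold change was 2.18 (SE 0.33) in stromal and -1.90 (SE 0.33) in adipocyte medium, each listed by the authors. In adipocyte against stromal medium the log2 fold change was -4.08 (SE 0.33), the largest such difference of the 8 genes. Phlda3 was also the least abundant of them in reads, with 19 to 948 reads per sample, and its coefficient of variation was 28.3% to 40.8% within a medium.

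Ccng1 (ENSMUSG00000020326) encodes cyclin G1, a p53 target that feeds back on the MDM2 and p53 circuit. Its values were 10795, 9951 and 10495 in unconditioned, 23465, 16498 and 19007 in stromal and 10650, 10471 and 9459 in adipocyte medium. Every stromal sample exceeded every other sample, while the unconditioned and adipocyte samples overlapped. The log2 fold change was 0.90 (SE 0.11) in stromal medium. In adipocyte medium, where the authors did not list it, it was -0.03 (SE 0.11, limma adjusted p = 0.786).

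Bax (ENSMUSG00000003873), encoding the pore-forming effector of the family, followed the same course. It was at 6052, 6273 and 6391 in unconditioned, 12664, 10251 and 12040 in stromal and 5590, 5516 and 5674 in adipocyte medium. The stromal samples stood clear of the rest, and the adipocyte samples were just below the unconditioned ones without overlap. The log2 fold change was 0.90 (SE 0.08) in stromal and -0.16 (SE 0.08, limma adjusted p = 0.0867) in adipocyte medium. The latter passed the threshold without stromal replicate 2 (limma adjusted p = 0.0324) and with only the compared groups in the fit (limma adjusted p = 0.0429). Ccng1 and Bax kept nearly the same proportion to each other in all media: their ratio was 1.67 ± 0.10 in unconditioned, 1.68 ± 0.15 in stromal and 1.82 ± 0.14 in adipocyte medium (SD, n = 3 each), with overlapping ranges. Within each mouse the adipocyte ratio was above the unconditioned one. In GENCODE M21 the gene model Gm45808 shares exon sequence with Bax on the same strand, so reads there could be split or dropped by the counting.

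Bcl2 (ENSMUSG00000057329), which encodes the founding survival protein, was also highest in stromal medium. It was at 2727, 2761 and 3322 in unconditioned, 6465, 7254 and 11260 in stromal and 3664, 3059 and 3509 in adipocyte medium. All stromal samples were above the others and mouse 3 was the highest of them, while the adipocyte and unconditioned ranges overlapped. The log2 fold change was 1.47 (SE 0.17) in stromal and 0.22 (SE 0.17, limma adjusted p = 0.227) in adipocyte medium. D630008O14Rik overlaps an exon of Bcl2 on the opposite strand in GENCODE M21.

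Bbc3 (ENSMUSG00000002083), Pmaip1 (ENSMUSG00000024521) and Bcl2l11 (ENSMUSG00000027381) encode BH3-only proteins, which trigger death by binding the survival members. Bbc3 was at 2175, 2246 and 2884 in unconditioned, 2636, 1832 and 2500 in stromal and 5016, 4848 and 5959 in adipocyte medium. The 3 adipocyte samples exceeded the other 6, which overlapped. Its log2 fold change was 1.12 (SE 0.15) in adipocyte and -0.07 (SE 0.15, limma adjusted p = 0.681) in stromal medium.

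Pmaip1 was at 1638, 1439 and 1789 in unconditioned, 1460, 1312 and 1291 in stromal and 4280, 3260 and 4359 in adipocyte medium. The adipocyte samples were again apart from all others. The log2 fold change was 1.28 (SE 0.12) in adipocyte and -0.26 (SE 0.12, limma adjusted p = 0.0879) in stromal medium. Stromal values were lower than unconditioned ones in all 3 mice, and with the mouse as a block, or without adipocyte replicate 2, this small difference passed the threshold (adjusted p = 0.0462 and 0.0309).

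Bcl2l11 was at 11784, 10137 and 9014 in unconditioned, 11335, 9525 and 10676 in stromal and 19844, 16723 and 19807 in adipocyte medium. No adipocyte sample overlapped the others. The log2 fold change was 0.87 (SE 0.11) in adipocyte and 0.03 (SE 0.11, limma adjusted p = 0.817) in stromal medium.

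Adipocyte medium was then set directly against stromal medium. All 8 genes passed the threshold there, 4 higher and 4 lower, where 91.0% of the 2868 genes did so, 33.8% higher and 57.2% lower. The ranges did not overlap for 3 higher and 4 lower genes, all but Cdkn1a, where 89.6% of all genes did not overlap, 33.4% higher and 56.2% lower. Nothing is read from these counts, because the listing of the genes used the same samples. Log2 fold changes were 1.54 (SE 0.12) for Pmaip1, 1.19 (SE 0.15) for Bbc3 and 0.84 (SE 0.11) for Bcl2l11. They were -1.25 (SE 0.17) for Bcl2, -1.05 (SE 0.08) for Bax and -0.93 (SE 0.11) for Ccng1. Each of the 8 genes had 1 sign in all 3 mice. This comparison shares its samples with the other 2, so its values are not separate evidence.

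The scaling of the libraries bears on these directions. Rescaling by the median of ratios over the listed genes moved the median of all log2 fold changes up by 0.93 in adipocyte and 0.36 in stromal medium against unconditioned medium, and the share of higher genes among those called went from 34.8% to 50.7% and from 36.6% to 66.8%. On that scale Bax, Ccng1 and Bcl2 were higher in adipocyte than in unconditioned medium, by 0.77, 0.89 and 1.14 (limma adjusted p = 2.34e-06, 1.59e-05 and 7.51e-05), and Bcl2l11 was higher in stromal medium by 0.39 (adjusted p = 0.0161). Phlda3 in adipocyte medium was at -0.995 on that scale. In adipocyte against stromal medium all 8 genes kept their sign on both scales. The rescaling used only genes that the authors had called changed, and which scale is nearer to the cells' RNA cannot be told from these files.

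**Figure D2:**
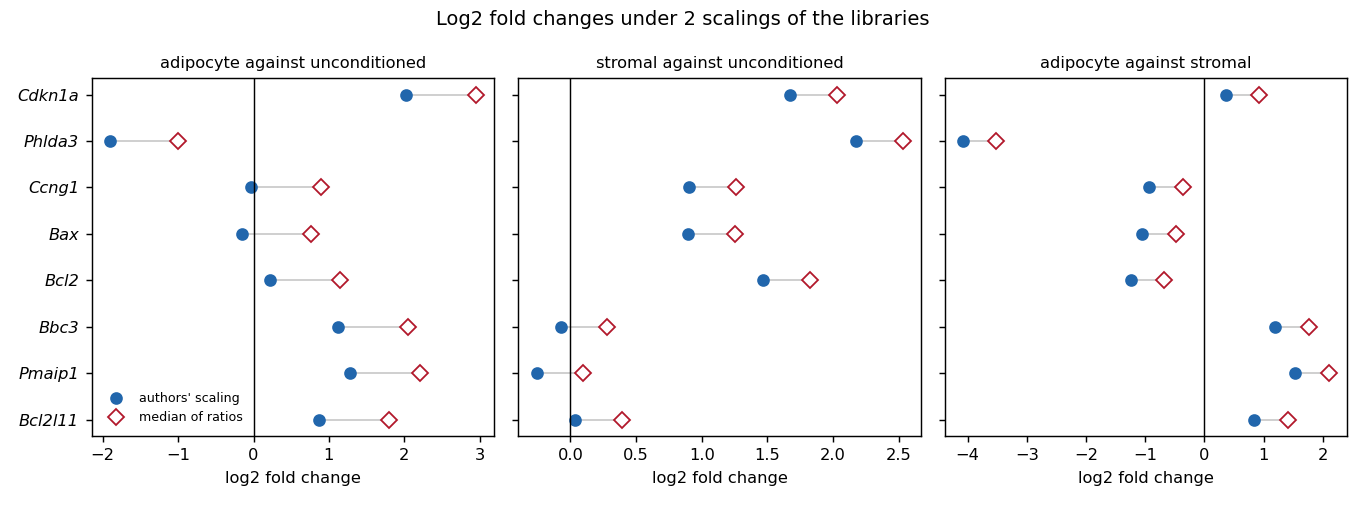
Log2 fold changes (x axes) of the 8 genes (rows) in the 3 comparisons, on the authors' scaling (filled circles) and after rescaling by the median of ratios over the listed genes (open diamonds). In the left panel Bax goes from -0.16 to 0.77 and Ccng1 from -0.03 to 0.89, while no gene changes sign in the right panel.

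Ratios of 2 genes within a sample do not depend on the scaling. Of 10 ratios formed, chosen after the values were seen, those of Bbc3, Pmaip1 and Bcl2l11 to Bcl2 differed between all 3 media. No ratio was formed for Bmf, another BH3-only gene in the sample table. Its log2 fold change against unconditioned medium was -1.44 in adipocyte and -0.16 in stromal medium, so it did not follow these 3 genes. They compare a gene pair across samples and not the amounts of 2 transcripts, because counts were not divided by gene length. The Bbc3 to Bcl2 ratio was 0.798, 0.814 and 0.868 in unconditioned, 0.408, 0.253 and 0.222 in stromal and 1.37, 1.58 and 1.70 in adipocyte medium. The Pmaip1 to Bcl2 ratio averaged 0.554 ± 0.042, 0.174 ± 0.056 and 1.16 ± 0.09, and the Bcl2l11 to Bcl2 ratio 3.57 ± 0.81, 1.34 ± 0.40 and 5.51 ± 0.12, in the same order (SD, n = 3 each). For Bbc3, Pmaip1 and Bcl2l11 the ranges were lowest in stromal and highest in adipocyte medium with no overlap. The authors listed these genes as higher in adipocyte medium and Bcl2 as higher in stromal medium. The order of the ratios follows in part from that listing and is given as a description.

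Bax followed Bcl2 more closely. The Bax to Bcl2 ratio was 2.22, 2.27 and 1.92 in unconditioned, 1.96, 1.41 and 1.07 in stromal and 1.53, 1.80 and 1.62 in adipocyte medium. The adipocyte samples were below the unconditioned ones without overlap, and the stromal samples overlapped both groups. Within each mouse the stromal ratio was below the unconditioned one. Among the p53 targets, the Cdkn1a to Phlda3 ratio was 4.73, 7.99 and 6.70 in unconditioned, 3.38, 5.97 and 4.31 in stromal and 122, 61.8 and 128 in adipocyte medium. The stromal and unconditioned ranges overlapped, though the stromal ratio was the lower one within each mouse. In adipocyte medium the mean ratio was 16.1 times the unconditioned one. The authors listed Cdkn1a as higher and Phlda3 as lower there, so this gap follows in part from the listing.

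**Figure D3:**
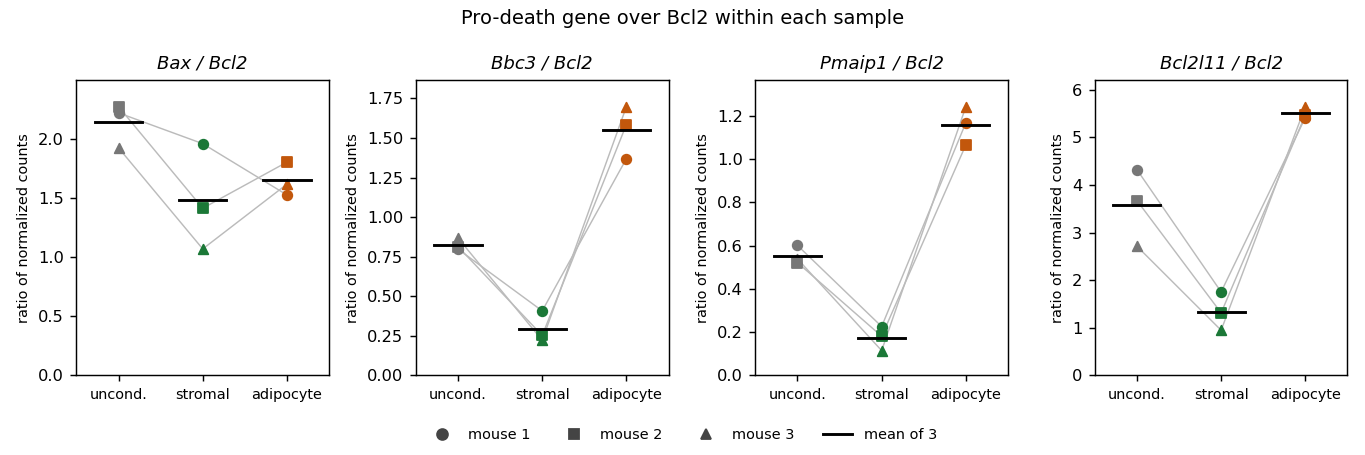
Ratio of the normalized counts of Bax, Bbc3, Pmaip1 and Bcl2l11 to those of Bcl2 in the same sample (y axes), by medium (x axis), with 1 symbol per mouse and bars for the mean of 3. The Bbc3, Pmaip1 and Bcl2l11 ratios are lowest in stromal and highest in adipocyte medium, at means of 0.294 and 1.55 for Bbc3. The stromal Bax ratios overlap those of both other media.

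Over the 9 samples, which share the libraries and the 3 media, Pearson's r of log2 values was 0.97 between Bax and Ccng1, 0.92 between Bax and Phlda3 and 0.91 between Bax and Bcl2, and it was lower between Phlda3 and Bcl2, at 0.73. Among the BH3-only genes of the 8 it was 0.96 for Bbc3 with Pmaip1, 0.94 for Pmaip1 with Bcl2l11 and 0.91 for Bbc3 with Bcl2l11. Cdkn1a was at 0.59 with Bbc3, 0.52 with Pmaip1 and 0.65 with Bcl2l11. Phlda3 and Pmaip1 ran opposite to each other, at -0.88. The authors' deposited clusters, made from the same values, divide the 8 genes into 2 groups and do not set Cdkn1a apart: Phlda3, Ccng1, Bax and Bcl2 are in their cluster 4, which holds 132 genes (4.57% of all), and Cdkn1a, Bbc3, Pmaip1 and Bcl2l11 are in their cluster 1, with 920 genes (31.8%). In stromal medium mouse 2 had the lowest value for 6 of the 8 genes and mouse 1 the highest for 7, and in adipocyte medium mouse 2 was again lowest for 6.

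Among 2443 named genes with a mean of at least 100, those most like each member over the 9 samples were found by Pearson's r of log2 values. Cdkn1a was closest to Sat1, Tnfaip8 and Clpb (r = 0.99 each). Phlda3 was closest to Tlr6 (0.99), Gtse1 (0.99) and Pros1 (0.98), and Bax to Lrrc6 (0.99), Gbp8 (0.98) and Ccng1 (0.97). Ccng1 itself was closest to Gbp8 (0.99) and Aldh7a1 (0.99), and Bcl2 to Myo6 (0.97), Gpr34 (0.95) and Spp1 (0.94). Pmaip1 was closest to Ypel5 (0.996), Klf6 (0.99) and Dusp16 (0.99), Bcl2l11 to Ccrl2 (0.99), P2ry10 (0.98) and Rc3h2 (0.98), and Bbc3 to Ampd1 (0.98), Zswim6 (0.98) and Arl13b (0.97). The 9 samples share 3 media and 3 mice, so these values describe likeness over few independent points.

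Of 60 symbols on a list of p53 targets and regulators, 20 were in the sample table, 6 of them among the 8 genes above (Cdkn1a, Phlda3, Ccng1, Bax, Bbc3 and Pmaip1). The authors' adipocyte table lists 14 of them and their stromal table lists 9. In adipocyte against unconditioned medium 10 of the 20 were past the limma threshold and higher, 7 were lower and 3 were not past it, with a median log2 fold change of 0.43. Among all 2868 genes 33.8% were higher and 63.4% lower, with a median of -1.03. In stromal against unconditioned medium 12 were higher and 3 lower while 5 missed it, and the median was 0.38, where 21.1% of all genes were higher and 36.6% lower with a median of -0.17. After rescaling the counts were 14 higher and 3 lower in adipocyte and 14 higher and 2 lower in stromal medium. Over all genes that scale gave 1078 higher and 1047 lower in adipocyte and 1129 higher and 562 lower in stromal medium. Atr and Rrm2b turned from lower to higher in adipocyte medium. Adipocyte against stromal medium gave 12 higher and 8 lower on both scales, where 33.8% of all genes were higher and 57.2% lower on the authors' scale. Of all genes called in that comparison, 51.8% were higher after rescaling, against 37.1% on the authors' scale.

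Gtse1 and Psrc1, singled out after their values were seen, were highest in stromal medium as Phlda3 was. Gtse1, whose product restrains p53 in G2, was at 496, 521 and 432 in unconditioned, 1926, 969 and 1788 in stromal and 186, 216 and 149 in adipocyte medium, with no overlap between media. In adipocyte medium, where the authors did not list it, Gtse1 fell by 1.40 on the log2 scale (SE 0.23, limma adjusted p = 6.82e-05), and rescaling ended that call (-0.48, adjusted p = 0.0680). Psrc1, encoding a spindle protein, was at 31.4, 62.6 and 50.5 in unconditioned and 339, 204 and 281 in stromal medium, a log2 fold change of 2.51 (SE 0.32). In adipocyte medium, where the authors did not list it, Psrc1 was at -0.21 (SE 0.32, limma adjusted p = 0.540). Both genes are also cell cycle genes, and the part of the cell cycle in their values was not tested.

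Other targets were highest in adipocyte medium. Tnfrsf10b, the mouse TRAIL death receptor gene, was at 253, 254 and 281 in unconditioned, 309, 259 and 247 in stromal and 1077, 703 and 1047 in adipocyte medium, and only the adipocyte samples stood apart. Sfn, encoding the cell cycle checkpoint protein 14-3-3 sigma, had log2 fold changes of 1.83 (SE 0.13) in adipocyte and 0.62 (SE 0.13, limma adjusted p = 0.00155) in stromal medium. The polo-like kinase genes Plk2 and Plk3 were at 1.69 (SE 0.20) and 1.65 (SE 0.14) in adipocyte medium and at 0.99 (SE 0.20) and 0.39 (SE 0.14) in stromal medium. The stromal call of Plk3 (limma adjusted p = 0.0370) ended without any single unconditioned replicate, or without stromal replicate 1 or 2. Gadd45a and Gadd45g, for growth arrest proteins that activate p38 and JNK signalling, were at 1.22 and 1.46 in adipocyte medium and at 0.37 and 0.86 in stromal medium. The stromal call of Gadd45a (limma adjusted p = 0.0203) ended without unconditioned replicate 2 or 3, or without stromal replicate 2. Ppm1d, encoding the WIP1 phosphatase that switches p53 signalling off, was at 0.90 in adipocyte medium and at 0.31 (limma adjusted p = 0.00651) in stromal medium.

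Other p53 pathway genes were lower in a conditioned medium. Sesn1, encoding a sestrin that restrains mTORC1, went from 17125 ± 466 in unconditioned to 6189 ± 482 in adipocyte medium (SD, n = 3 each), a log2 fold change of -1.47 (SE 0.09). In stromal medium, where the authors did not list it, Sesn1 was at -0.41 (limma adjusted p = 0.00190). Rescaling put Sesn1 at -0.54 in adipocyte and -0.05 in stromal medium. The ferredoxin reductase gene Fdxr and Ei24, an endoplasmic reticulum protein gene, were at -1.15 and -1.05 in adipocyte medium, and rescaling brought them to -0.23 and -0.13. Rrm2b, which encodes the p53-inducible ribonucleotide reductase subunit, was at -1.12 (SE 0.14) in stromal medium. Atr, for the kinase that signals replication stress, was at -1.07 (SE 0.10) there. In adipocyte medium, where the authors did not list it, Atr was at -0.25 (limma adjusted p = 0.0336). That call ended without unconditioned replicate 1 or without adipocyte replicate 1.

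**Figure D4:**
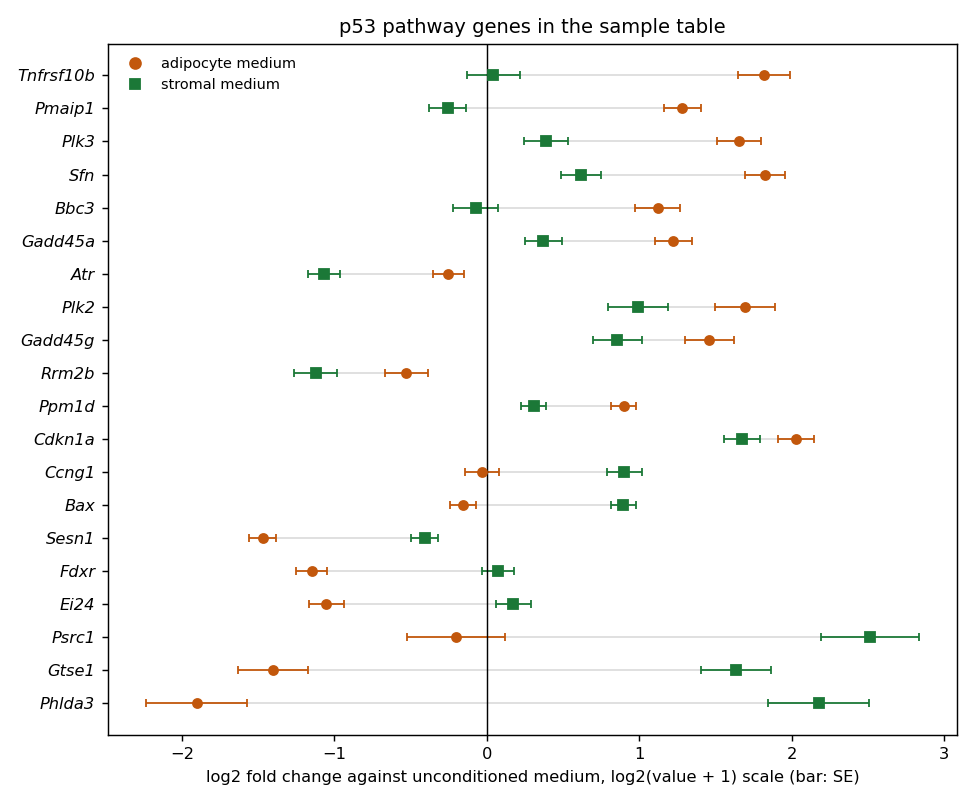
Log2 fold change against unconditioned medium on the log2(value + 1) scale (x axis) of the 20 p53 pathway genes in the sample table (rows), in adipocyte (circles) and stromal medium (squares), with SE bars from the limma fit. Rows are sorted by the difference between the media, from Tnfrsf10b, at 1.82 and 0.04, to Phlda3, at -1.90 and 2.18.

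In the BCL2 family and apoptosis list 14 of 42 symbols were in the sample table, 12 of them listed by the authors for adipocyte and 2, Bax and Bcl2, for stromal medium. In adipocyte against unconditioned medium 7 were past the threshold and higher, 5 lower and 2 not past it, with a median of 0.54, where 33.8% of all genes were higher and 63.4% lower. In stromal medium 3 were higher, 0 lower and 11 not past it, with a median of -0.02. Among all genes 21.1% were higher there and 36.6% lower. After rescaling 8 were higher and 0 lower, where over all genes 1129 were higher and 562 lower. With the mouse as a block 1 was lower in stromal medium, Pmaip1. Set against stromal medium, adipocyte medium had 7 higher and 7 lower on both scales. Among all genes 33.8% were higher and 57.2% lower on the authors' scale. After rescaling 51.8% of the genes called in that comparison were higher. The third gene past the threshold in stromal medium was Casp6, an executioner caspase gene, at 0.35 (SE 0.12, limma adjusted p = 0.0232). That call ended without unconditioned replicate 1 or 2 (adjusted p = 0.0645 and 0.0690) or without stromal replicate 1 or 3 (adjusted p = 0.0770 and 0.0605).

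Guardian genes of the A1 type joined Bbc3, Pmaip1 and Bcl2l11 among the higher genes in adipocyte medium. Bcl2a1d was at 1364, 1405 and 1431 in unconditioned, 1465, 1355 and 1112 in stromal and 4389, 3636 and 3760 in adipocyte medium, and Bcl2a1a and Bcl2a1b were at log2 fold changes of 1.35 and 1.29 in adipocyte medium. These A1 genes are near-identical copies whose reads the counting could split, so their single values are uncertain. Birc3, encoding the ubiquitin ligase cIAP2 that restrains caspase activation, was at 0.86 (SE 0.12) in adipocyte and -0.01 (SE 0.12, limma adjusted p = 0.942) in stromal medium. Survival and death genes were thus both among the higher genes of this medium.

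The lower genes in adipocyte medium were Casp9, the initiator caspase gene of the mitochondrial pathway, at -1.80 (SE 0.13), Bcl2l12 at -1.85 (SE 0.20), the BH3-only gene Bmf at -1.44 (SE 0.29), Casp6 at -1.02 (SE 0.12) and Htra2, for a mitochondrial protease released in apoptosis, at -0.89 (SE 0.10). Rescaling left Casp9 and Bcl2l12 lower, at -0.87 and -0.93, and put Casp6 and Htra2 at -0.10 and 0.03. Casp9, Bcl2l12 and Htra2 overlap exons of other genes on the opposite strand in GENCODE M21. On the authors' scaling the BH3-only genes of the sample table therefore did not all go 1 way in adipocyte medium. Bbc3, Pmaip1 and Bcl2l11 were higher and Bmf lower, but rescaling ended the call of Bmf (-0.52, limma adjusted p = 0.119).

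**Figure D5:**
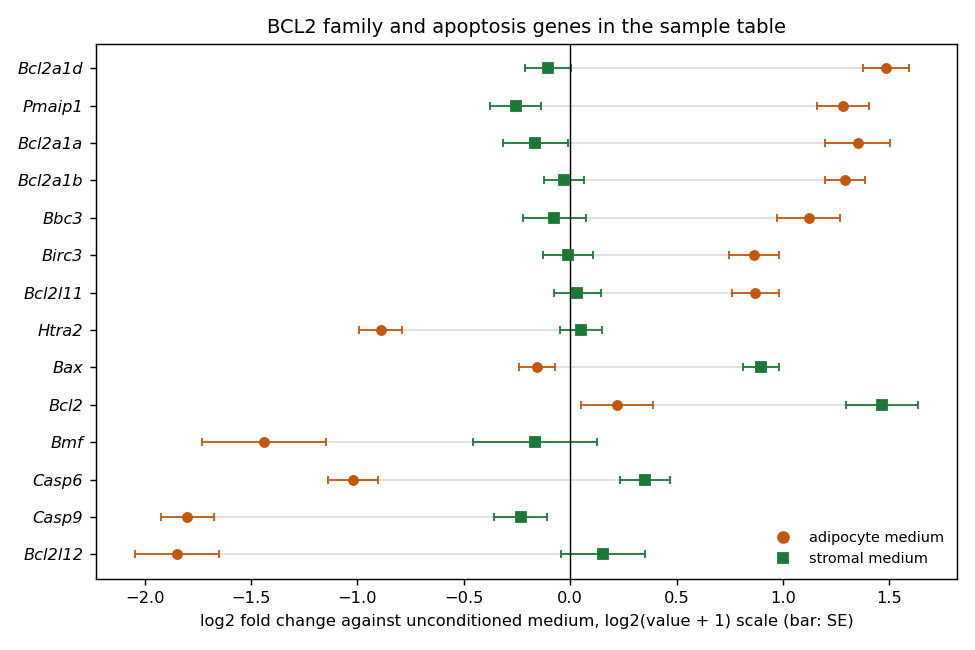
Log2 fold change against unconditioned medium on the log2(value + 1) scale (x axis) of the 14 BCL2 family and apoptosis genes in the sample table (rows), in adipocyte (circles) and stromal medium (squares), with SE bars from the limma fit. In stromal medium Bcl2 at 1.47, Bax at 0.90 and Casp6 at 0.35 are past the threshold, while adipocyte medium spreads the genes from -1.85 for Bcl2l12 to 1.48 for Bcl2a1d.

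The T cell markers in the table, 4 of 15 on the list and including Cd3e, were present in every sample. Their summed level was 86513 to 97969 in unconditioned, 72070 to 73297 in stromal and 32578 to 35237 in adipocyte medium. These 4 genes differed in stromal medium, at log2 fold changes of -0.61 for Cd3e, -0.55 for Cd3g, -0.12 for Cd8b1 and 0.30 for Cd8a. Sums of markers of other cell types differed between media as well. Only markers that the authors had called changed are in the table, so some difference follows from that selection. The sums also rest on the authors' scaling, where the median log2 fold change of all genes was -1.03 in adipocyte medium. They are therefore not a measure of how many cells of a type were present. The 9 B cell markers of 15 summed to 10601 to 13802, 11161 to 16772 and 3938 to 5467 in the same order, the 6 myeloid markers of 14 to 3589 to 7271, 3644 to 8848 and 633 to 1073, and the 6 neutrophil markers of 10 to 1874 to 2723, 1835 to 3113 and 239 to 830. The 2 natural killer markers of 7 summed to 2004 to 2090, 756 to 890 and 1296 to 2750. This sum joins genes that differ: Klre1 was at 1.12 and Prf1 at -0.38 in adipocyte medium, and at 0.31 and -1.81 in stromal medium, on the log2 scale. In the myeloid sum Lyz2 gave the largest counts in unconditioned medium, at a mean of 3314, while Cd14 had a log2 fold change of 1.99 in stromal medium. The single erythroid marker of 8, Car1, was at 259 to 430, 539 to 1776 and 74.8 to 146. No marker in the table was at 0 in any sample. The part of these cells in the values of the 8 genes was not tested. Reads over the listed genes came to 6522742 to 13758643 per sample, and whole library depths are not known here.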

How the data were processed

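RNA of 9 samples, 3 mice in 3 media, was sequenced from SMART-seq v4 cDNA in Nextera XT libraries, per the labels' protocols. FastQC, Trimmomatic, featureCounts and DESeq2 were used per the submitters' processing notes, which also list the builds GRCm39, GRCh38 and hg38, without versions or roles. No aligner, annotation or strand setting is named (not given in the sources used here). Among the files, the deposited sample table holds a normalized signal, the authors' read counts divided by 1 size factor per sample, and a cluster number per gene. 100% of the values are whole multiples of a step per sample, within 0.001 reads. Per the file headers, the authors' tables give a log2 fold change, its standard error, a Wald score, a p-value and an adjusted p-value. The score there tests a change beyond 1.5-fold.

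On a log2 scale with a pseudocount of 1, limma-trend (limma 3.58.1, R 4.3.3) was fitted over the 2868 genes with a mean of at least 1. All 9 samples were in 1 fit with the medium as the only factor. Tests were two-sided with Benjamini-Hochberg adjustment over all 2868 genes and a threshold of 0.05. No exact permutation test was made, since 3 against 3 samples give 0.1 at the least. The fit was checked on simulated data with independent samples, changes balanced in direction and no selection of genes. That check cannot speak to false calls in this selected table. Alternatives were rescaling by the median of ratios, pseudocounts of 0.5 and 8, no filter and a minimum mean of 10, the mouse as a block, edgeR 4.0.16 on the recovered reads, the compared groups alone and each sample left out. Labels name the mouse of each sample, so samples pair across media. Deviations from the group means correlated at -0.12 to 0.26 between samples of 1 mouse (median 0.13), against a median of -0.07 between mice.

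The genes and lists were chosen with earlier results of these data known. All rule genes in the table were named, with list members and the 3 genes most like each by Pearson's r among named genes with a mean of at least 100, of which 1 is not reported here. Ratios were formed after the values were seen. Promoter windows came from RefSeq tables of GRCm38.p6, and exon overlaps from GENCODE M21, which need not be the authors' annotation. Nextera libraries do not keep strand. The pseudocount shrinks fold changes of low genes.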

Additional observations from a re-analysis of the deposited data

How the results depend on the processing

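Under other settings 390 values of the 8 genes kept their sign and side of the threshold, 9 changed sign, 7 newly passed the threshold and 2 no longer did. Rescaling by the median of ratios turned Bax and Ccng1 to 0.77 and 0.89 in adipocyte against unconditioned medium, and Bbc3 and Pmaip1 to 0.28 and 0.10 in stromal against unconditioned medium. It left 1047 genes lower in adipocyte medium, 1129 higher and 562 lower in stromal medium and 1091 lower in adipocyte against stromal medium, where 1818, 606, 1049 and 1641 had been called. It left 3 p53 pathway genes and 2 BCL2 family genes lower in adipocyte medium, and 8 BCL2 family genes higher in stromal medium. The cause of these shifts is the factor itself, which moves all genes of a medium alike.

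Leaving out 1 sample at a time gave -0.065 to 0.021 for Ccng1 in adipocyte medium, and in stromal medium -0.174 to 0.088 for Bbc3 and -0.060 to 0.133 for Bcl2l11. The count of BCL2 family genes lower in stromal medium ranged from 0 to 1 without single samples. It was 1 with the mouse as a replicate block and 2 with only the groups compared, against 0 in the fit of all samples. The block changed no other call among the 8 genes. EdgeR on the recovered reads kept all calls of the 8 genes. Low depth limits Phlda3 most, at 19 reads in its lowest sample.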

Other observations

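Cyclin-dependent kinase inhibitors and G1 cyclins, the machinery on which p21 acts, had 5 of 17 symbols in the sample table. Against unconditioned medium 3 were past the limma threshold and higher and 2 lower in adipocyte medium, where 33.8% of all genes were higher and 63.4% lower. In stromal medium 3 were higher, 0 lower and 2 not past it, where 21.1% of all genes were higher and 36.6% lower. After rescaling the counts were 3 higher and 1 lower in adipocyte and 4 higher and 0 lower in stromal medium. Over all genes that scale gave 1078 higher and 1047 lower in adipocyte and 1129 higher and 562 lower in stromal medium. Cdkn1c, which encodes p57, a relative of p21, was at 239, 261 and 196 normalized counts in unconditioned, 760, 460 and 614 in stromal and 525, 454 and 361 in adipocyte medium. Like Cdkn1a it was above the unconditioned range in both conditioned media, and in adipocyte medium, where the authors did not list it, it rose by 0.94 on the log2 scale (SE 0.20, limma adjusted p = 5.81e-04). Ccne2, encoding the cyclin E2 partner of CDK2, was at 1.44 (SE 0.12) in adipocyte and 0.14 (SE 0.12, adjusted p = 0.370) in stromal medium, and rescaling put the latter at 0.49 (adjusted p = 0.00469). Cdkn2c, encoding the INK4 inhibitor p18, was at -1.27 (SE 0.13) in adipocyte and -0.21 (SE 0.13, adjusted p = 0.169) in stromal medium, which rescaling put at -0.35 and 0.15. Cdk4, for the kinase that INK4 proteins bind, was at -0.92 (SE 0.07) in adipocyte medium, which rescaling put at 0.01, and rose by 0.40 (SE 0.07, adjusted p = 4.13e-04) in stromal medium. Cdkn1c, Ccne2 and Cdk4 overlap exons of other genes on the opposite strand in GENCODE M21.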
